A study of Mus musculus with 9 samples.

Results

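Transcripts of 3 sodium pump genes, Atp1b1, Atp1b3 and Fxyd1, were followed through the mouse atrioventricular (AV) node. They were picked by symbol, with earlier results of these data known, and are 3 of the 34198 gene symbols measured. All 3 passed the filter on low values (at least 1 CPM, read counts divided by the size of the library, in at least 3 libraries), as did 12925 symbols in all. The tissue was microdissected AV node of C57BL/6J mice, and bulk RNA sequencing gave 9 libraries in 3 groups of 3. Libraries 1 to 3 came from mice with the genotype Control. Libraries 4 to 6 came from Cx3cr1 Cx43-/- mice, which by their name lack connexin 43 (gene Gja1) in cells that use the Cx3cr1 promoter, a promoter active in macrophages and also in other mononuclear phagocytes. Libraries 7 to 9 came from Cd11bDTR mice, which carry the diphtheria toxin receptor under the CD11b promoter and which the design text describes as macrophage-depleted. CD11b is also found on monocytes and neutrophils. The labels give no age, toxin dose, time after toxin or batch, do not say what the control mice received, and do not state whether several nodes were pooled into a library. If the libraries of a group did not come from separate mice or pools, the p-values measure only the spread between these samples.

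The sodium pump, or Na,K-ATPase, exports sodium and imports potassium at the cost of ATP and so sets the gradients on which every cardiac action potential depends. Its catalytic alpha subunit needs a glycosylated beta subunit to fold, to leave the endoplasmic reticulum and to reach the surface, and beta isoforms also tune the affinity for potassium. A small FXYD protein can join the pair. In heart this is mainly phospholemman, encoded by Fxyd1, which restrains the pump until it is phosphorylated by protein kinase A or protein kinase C. Atp1b1 encodes the main beta subunit of heart muscle, beta 1, and Atp1b3 encodes beta 3, known on leukocytes as CD298 and found in many tissues.

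The sequences before the start sites of the 3 genes are shown because all encode sodium pump proteins. As described further on, Atp1b1 alone of them passed the test in depleted against control nodes. That alone does not show that the members changed differently. Their ratios within libraries had an adjusted p of 0.15 by exact permutation, a test that cannot give an unadjusted p below 0.1 here. A link between these sequences and the changes was not tested. Each run holds 250 bases before and 30 bases after a start site in RefSeq (build GRCm38.p6, minus strand, read 5′ to 3′ along the gene), and all 3 symbols matched that table. Atp1b3 has 2 starts there, of which the more upstream one is shown. The windows are chr1:164458326-164458605 for Atp1b1, chr9:96364402-96364681 for Atp1b3 and chr7:31054824-31055103 for Fxyd1. Capitals mark, on either strand, the GC box letters GGGCGG, the letters of the CCAAT box, and the TATA box letters TATAAA. None of these motifs overlaps another here.
Atp1b1: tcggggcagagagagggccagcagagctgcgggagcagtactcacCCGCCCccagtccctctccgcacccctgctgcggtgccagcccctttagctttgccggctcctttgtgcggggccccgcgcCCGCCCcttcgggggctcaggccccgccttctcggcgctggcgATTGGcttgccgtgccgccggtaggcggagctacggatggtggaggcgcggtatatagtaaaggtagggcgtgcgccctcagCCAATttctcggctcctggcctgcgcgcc
Atp1b3: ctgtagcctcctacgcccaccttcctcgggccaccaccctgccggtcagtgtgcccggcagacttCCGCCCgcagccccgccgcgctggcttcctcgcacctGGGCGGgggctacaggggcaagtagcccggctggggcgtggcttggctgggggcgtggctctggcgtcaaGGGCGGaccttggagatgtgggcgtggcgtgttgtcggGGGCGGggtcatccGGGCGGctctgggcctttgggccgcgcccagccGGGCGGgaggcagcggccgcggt
Fxyd1: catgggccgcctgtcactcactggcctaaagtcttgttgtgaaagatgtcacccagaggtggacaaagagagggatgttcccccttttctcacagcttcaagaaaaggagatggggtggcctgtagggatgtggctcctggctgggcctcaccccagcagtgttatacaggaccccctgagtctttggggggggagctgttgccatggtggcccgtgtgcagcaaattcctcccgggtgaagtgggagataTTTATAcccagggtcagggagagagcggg
The GC box letters occurred 2 times for Atp1b1, 6 times for Atp1b3 and 0 times for Fxyd1, and 34.7% of 32851 RefSeq windows of the same length hold it. CCAAT occurred 2 times for Atp1b1 and 0 times for the other two genes, against 36.1% of windows with a match. TATAAA was present only for Fxyd1, 1 time, and 13.1% of windows hold it. That match lies on the opposite strand and just after the start site, so it is not placed as a TATA box of Fxyd1. The last CCAAT match of Atp1b1 and the last GC box match of Atp1b3 also lie after the start site. Only the exact letters TATAAA were searched for, and the Atp1b1 run holds the similar letters tatata before its start site. GC content was 70.4% for Atp1b1, 75.0% for Atp1b3 and 57.1% for Fxyd1, against a median of 52.5% over all windows. These matches are descriptions of the letters and not of factor binding, which was not measured.

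Several facts of the whole series touch every value below. The share of the CPM total that fell in listed genes was 45.6% ± 2.95 for control libraries, 47.2% ± 0.625 for Cx3cr1 Cx43-/- libraries and 36.7% ± 7.89 for depleted ones (SD, n = 3). Libraries 7, 8 and 9 held 44.0%, 37.7% and 28.3%. Library 7 lay within the control range of 42.8% to 48.7%, and libraries 8 and 9 below it. A CPM value in libraries 8 and 9 is therefore scaled by a total in which reads outside listed genes weigh more. Results are given with other scalings where these change them. By the spacing of low values, 1 CPM stood for about 52.1 to 64.9 reads, so that the members rested on about 2396 to 17475 reads per library. The summed CPM of 13 resident macrophage markers was 309 to 486 in control, 471 to 627 in Cx3cr1 Cx43-/- and 81.2 to 87.3 in depleted libraries. Connexin 43 itself, measured over the whole node, ran from 163 to 246 CPM in control and from 179 to 249.99 CPM in Cx3cr1 Cx43-/- libraries, which does not check a deletion limited to macrophages. The 12 markers of AV node and conduction cells were present in every group, summing to 779.86 to 968 CPM in control, 755 to 945 CPM in Cx3cr1 Cx43-/- and 184 to 280.1 CPM in depleted libraries.

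In control nodes the members lay high among pump genes. Per kilobase of exon (union of GENCODE M21 basic exons), Fxyd1 stood at 239 ± 20.7 CPM per kb, Atp1b1 at 105 ± 12.7 and Atp1b3 at 24.6 ± 2.11 (SD, n = 3). Fxyd6, another FXYD regulator, stood between Atp1b1 and Atp1b3 at 42.8 ± 5.25 CPM per kb. Atp1b2, the beta 2 subunit also known as a glial adhesion molecule, was below Atp1b3 at 9.96 ± 2.25. No neighbours in this order of 5 genes overlapped in control. Over the depleted libraries the order differed, since Atp1b3, at 30.2 ± 7.66 CPM per kb, lay above Fxyd6, at 19.2 ± 1.04, in every library.

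**Figure D1:**
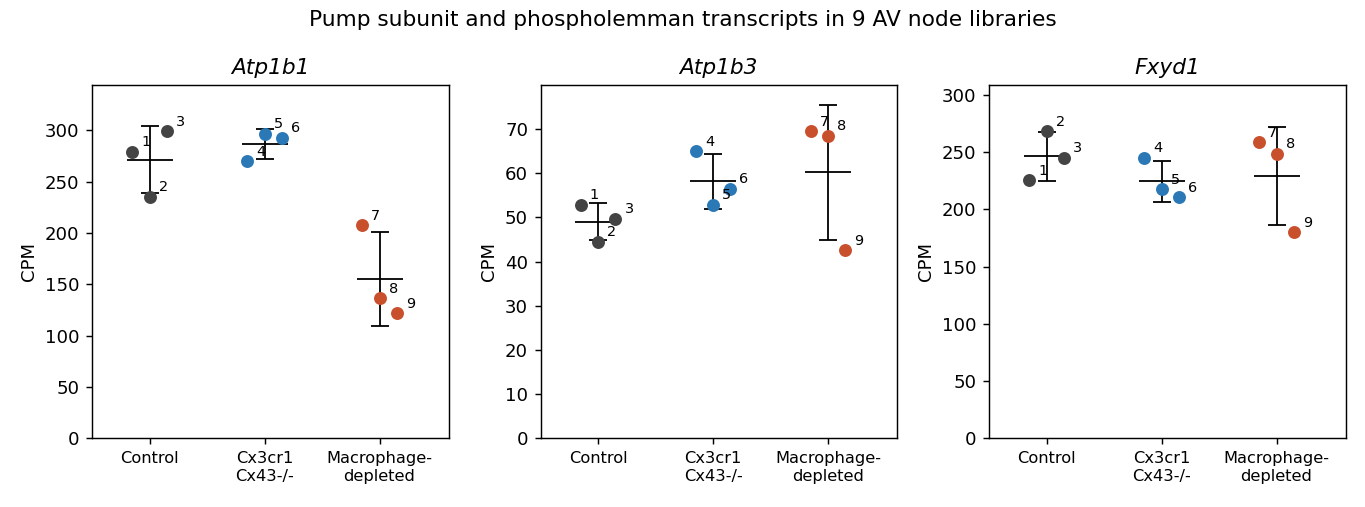
CPM of Atp1b1, Atp1b3 and Fxyd1 in each of the 9 libraries (points, with library numbers), with group mean and SD as bars. The Atp1b1 values of libraries 7 to 9 all lie below those of the other 6 libraries, while the groups overlap for Fxyd1.

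The first comparison asked how the pump subunits stood in nodes depleted of macrophages. Atp1b1 fell and Atp1b3 and Fxyd1 did not pass the test, so 1 of 3 members was called lower and 0 higher. Over all 12925 tested genes 36.2% were called, 33% as lower and 3.23% as higher, and the median gene moved by -0.49 on the log2 scale. A fall of 1 in 3 members is close to the share of all tested genes that fell. In bulk tissue, fewer cells of a type and less RNA per cell cannot be told apart.

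Atp1b1 read 279.50, 235.42 and 299.43 CPM in control libraries 1, 2 and 3, and 207.63, 136.59 and 121.96 CPM in depleted libraries 7, 8 and 9. Every depleted library was below every control library, and library 7 was nearest to control. Group means were 155 ± 45.8 CPM against 271 ± 32.8 CPM (SD, n = 3). The log2 change was -0.83 (SE 0.22, 95% interval -1.28 to -0.38, limma adjusted p = 0.00537). Of all tested genes, 25.4% had as low a change or a lower one. The libraries of these 2 groups did not overlap for 41.6% of tested genes, with the depleted ones lower for 38%. With median-of-ratios scaling, which brings the median of all genes to -0.04, the Atp1b1 change was -0.34 and missed the threshold (adjusted p = 0.0528). It passed the threshold, at -0.50 and -0.54, with columns scaled to a common total and with quantile normalization.

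Atp1b3 read 52.83, 44.50 and 49.68 CPM in control libraries 1, 2 and 3, and 69.49, 68.43 and 42.52 CPM in depleted libraries 7, 8 and 9. Libraries 7 and 8 were above all control libraries and library 9 below them. The means were 60.1 ± 15.3 CPM in depleted and 49.0 ± 4.21 CPM in control libraries (SD, n = 3), a log2 difference of 0.26 (SE 0.22, 95% interval -0.18 to 0.71, limma adjusted p = 0.345). The result depended on the scaling and on library 9. Atp1b3 was called higher at 0.59 with a common total (adjusted p = 0.00241), at 0.59 with quantile normalization (0.00226), at 0.75 with median-of-ratios scaling (0.000708), and at 0.49 without library 9 (0.0227). Even on the deposited scale its difference lay above that of 89.8% of tested genes.

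Fxyd1 read 225.69, 268.36 and 245.05 CPM in control libraries 1, 2 and 3, and 258.46, 248.72 and 180.23 CPM in depleted libraries 7, 8 and 9. Libraries 7 and 8 lay within the control range, and library 9 below it. Means were 229 ± 42.6 CPM against 246 ± 21.4 CPM (SD, n = 3). The log2 difference of -0.12 (SE 0.21, 95% interval -0.55 to 0.31, limma adjusted p = 0.669) was within the spread of the libraries. Its sign turned to 0.22 with a common total, 0.17 with quantile normalization and 0.37 with median-of-ratios scaling, none of which passed the test (adjusted p = 0.205, 0.320 and 0.0615). Without library 9 the difference was 0.04.

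**Figure D2:**
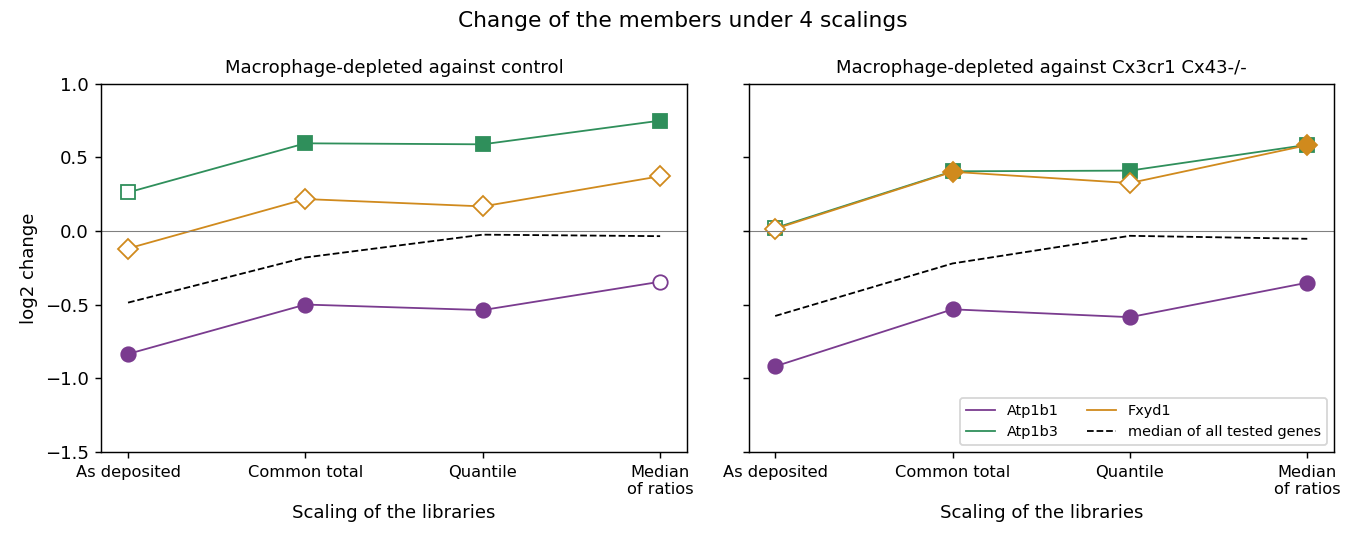
Log2 change of each member under 4 scalings of the libraries, for macrophage-depleted against control (left) and against Cx3cr1 Cx43-/- (right). Filled markers have a limma adjusted p under 0.05, and the dashed line is the median of all tested genes, which lies above Atp1b1 and below Atp1b3 and Fxyd1 under every scaling shown.

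The order of the members was the same under all 4 scalings, with Atp1b1 lowest, Fxyd1 between and Atp1b3 highest. A common total and median-of-ratios scaling divide all genes of a library by the same factor. Apart from the pseudocount they cannot change this order, so only quantile normalization could have done so. Ratios within a library remove a factor common to its genes (here on CPM + 0.5). The ratio of Atp1b1 to Atp1b3 was 5.25, 5.24 and 5.98 in control libraries 1, 2 and 3, and 2.97, 1.99 and 2.85 in depleted libraries 7, 8 and 9. The depleted values were all lower, with geometric means of 2.56 and 5.48 and a log2 difference of -1.10. An exact two-sided permutation test of 3 against 3 libraries gave p = 0.1, the smallest it allows, and 0.15 after Benjamini-Hochberg adjustment over the 9 ratio tests. Leaving out each library in turn gave -1.20 to -0.91.

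The ratio of the regulator to the main beta subunit, Fxyd1 to Atp1b1, moved the other way. It was 0.808, 1.14 and 0.819 in control libraries 1, 2 and 3, and 1.24, 1.82 and 1.48 in depleted libraries 7, 8 and 9. Depleted libraries were all higher, by 0.72 on the log2 scale (exact permutation p = 0.1, adjusted 0.15). Fxyd1 to Atp1b3 was 4.24, 5.97 and 4.89 in control and 3.70, 3.62 and 4.201 in depleted libraries, which were lower by a narrow gap with a log2 difference of -0.38 (exact permutation p = 0.1, adjusted 0.15). Single genes did not overlap between these groups for 41.6% of those tested. How often ratios of other gene pairs do not overlap was not counted in any comparison.

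**Figure D3:**
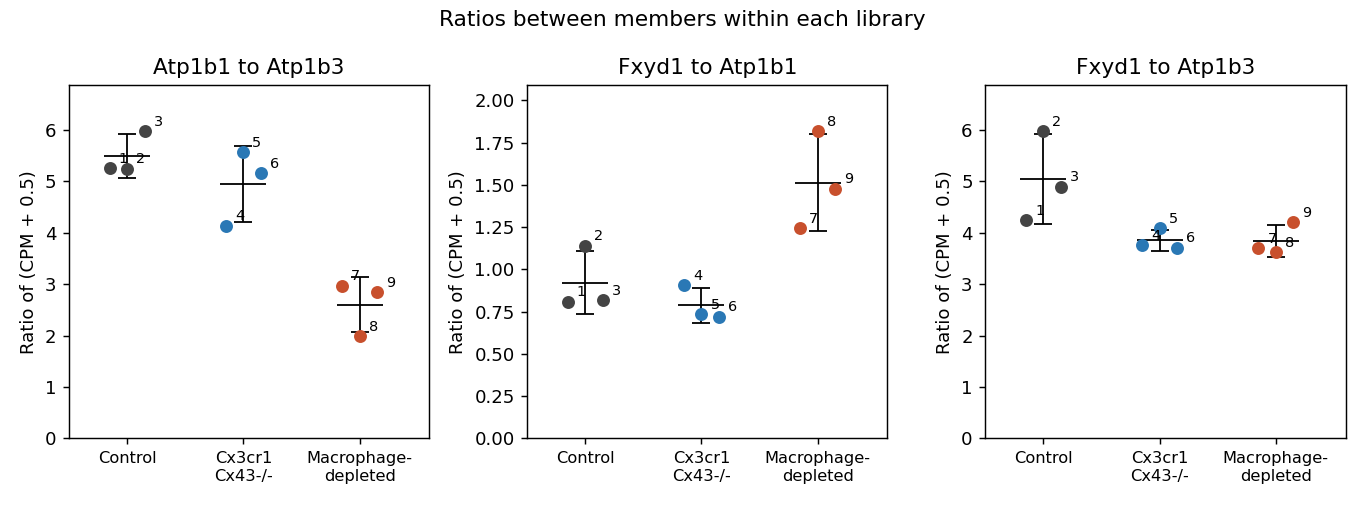
Ratios of CPM + 0.5 between members within each library (points, with library numbers), with group mean and SD as bars. Depleted libraries are lowest for Atp1b1 to Atp1b3 and highest for Fxyd1 to Atp1b1, and they lie with the Cx3cr1 Cx43-/- libraries for Fxyd1 to Atp1b3.

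Among the 3 beta subunits above the filter, shares were taken per kilobase of exon. Atp1b1 made up 75.3% ± 1.19 of the beta transcripts in control, 74.3% ± 2.48 in Cx3cr1 Cx43-/- and 64.2% ± 4.72 in depleted libraries (SD, n = 3). Atp1b3 made up 17.7% ± 1.10, 19.5% ± 2.45 and 32.4% ± 4.94 in the same order of groups. Atp1b2 took the remaining 7.06% ± 0.896, 6.24% ± 0.848 and 3.35% ± 0.275. The Atp1b3 share was 29.1%, 38.1% and 30.1% in libraries 7, 8 and 9, all above the highest control library at 18.5%. Fxyd1 held 81.8% ± 1.51 of the transcripts of 5 measured FXYD genes in control and 86.9% ± 1.87 in depleted libraries, again without overlap. These shares were not tested, and how often shares within other gene families do not overlap was not counted.

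**Figure D4:**
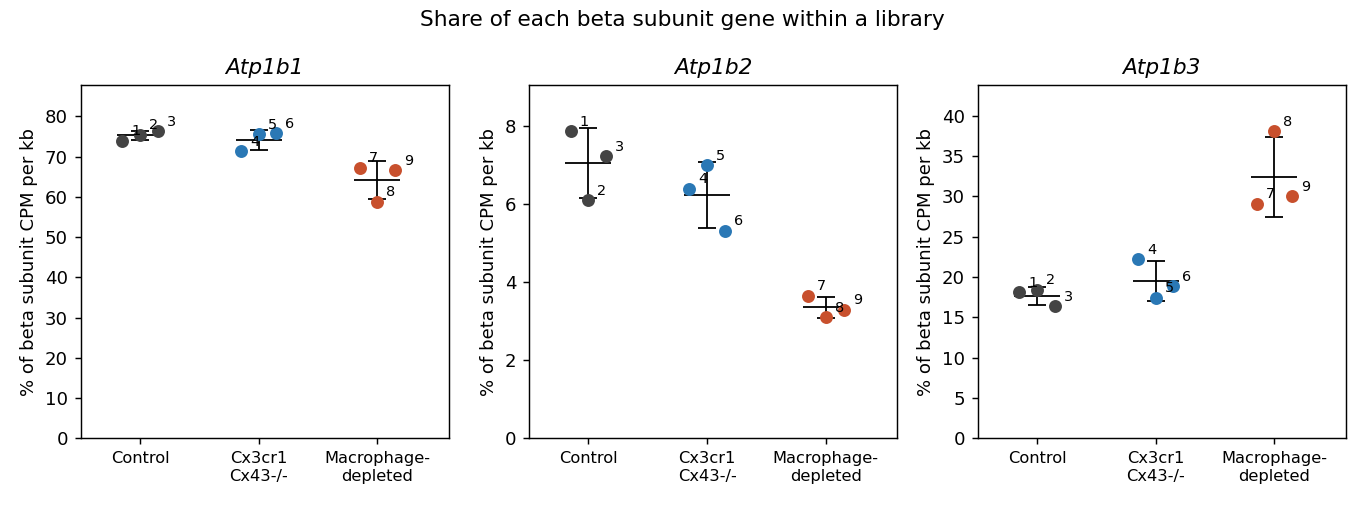
Share of Atp1b1, Atp1b2 and Atp1b3 in the summed beta subunit CPM per kilobase of exon, by library. Libraries 7 to 9 hold Atp1b3 shares of 29.1% to 38.1%, against 16.4% to 22.2% in the other 6 libraries.

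Marker lists of some other cell types differed between depleted and control libraries. Summed CPM did not overlap for cardiomyocytes, endothelial cells, monocytes and neutrophils, or Schwann cells and neurons. It overlapped for fibroblasts, adipocytes, smooth muscle cells and erythroid cells. The summed CPM of 12 cardiomyocyte markers was 30442 to 32625 in control and 25774, 18878 and 16210 in depleted libraries 7, 8 and 9. Atp1b1, Atp1b3, Fxyd1 and the share of the CPM total in listed genes all fell in this same order of libraries. Relative to the median of these markers within a library, Atp1b1 differed by -0.36 between depleted and control (exact permutation p = 0.2, groups overlapping). On the same measure Atp1b3 was higher by 0.73 (exact permutation p = 0.1, the smallest possible, no overlap) and Fxyd1 differed by 0.35 (exact permutation p = 0.2, overlapping). After adjustment over 9 such tests each of these was 0.257. The 9 markers of monocytes and neutrophils summed to 4.6 to 9.57 CPM in control and 31.8 to 52.5 CPM in depleted libraries, and 9 endothelial markers to 407 to 559.8 and 217 to 374 CPM. Fibroblast markers (9) ran from 2801 to 3295 and from 2734 to 2806 CPM, and adipocyte markers (7) from 249 to 286 and from 269 to 748 CPM, highest in library 8. Markers of Schwann cells and neurons (12) ran from 56.7 to 78.5 and from 29.5 to 36.5 CPM, of smooth muscle cells (7) from 531 to 652 and from 479.53 to 669 CPM, and of erythroid cells (6) from 4.54 to 16.4 and from 4.72 to 12.0 CPM. The part of these cell types in the values of the members was not tested.

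The partners of the members are given from lists of pump genes and their surroundings. Among the other beta subunits Atp1b4 stayed below the filter, and Atp1b2 fell from 28.3 ± 6.40 CPM in control to 9.01 ± 3.02 CPM in depleted libraries (SD, n = 3; log2 change -1.62, limma adjusted p = 5.99e-05). Of 6 other FXYD genes 4 were tested, of which 1 rose and 2 fell, beside 3.23% and 33% of all tested genes. Fxyd5, or dysadherin, which also acts on cell adhesion, rose from 24.6 ± 0.997 to 44.9 ± 10.4 CPM (log2 change 0.83, adjusted p = 0.00443). Fxyd6 fell from 76.6 ± 9.41 to 34.4 ± 1.86 CPM (log2 change -1.14, adjusted p = 0.000154). Fxyd2, the gamma subunit of kidney, fell from 1.67 ± 0.675 to 0.510 ± 0.254 CPM (adjusted p = 0.0413), a call lost in most alternatives. These were the 3 other scalings, a pseudocount of 0.1, no filter, a fit of only these 2 groups, library quality weights, and leaving out library 1, 3, 4, 5, 6 or 7. Fxyd7 stood at 1.35 ± 0.667 CPM in control and 0.967 ± 1.05 CPM in depleted libraries (adjusted p = 0.413).

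**Figure D5:**
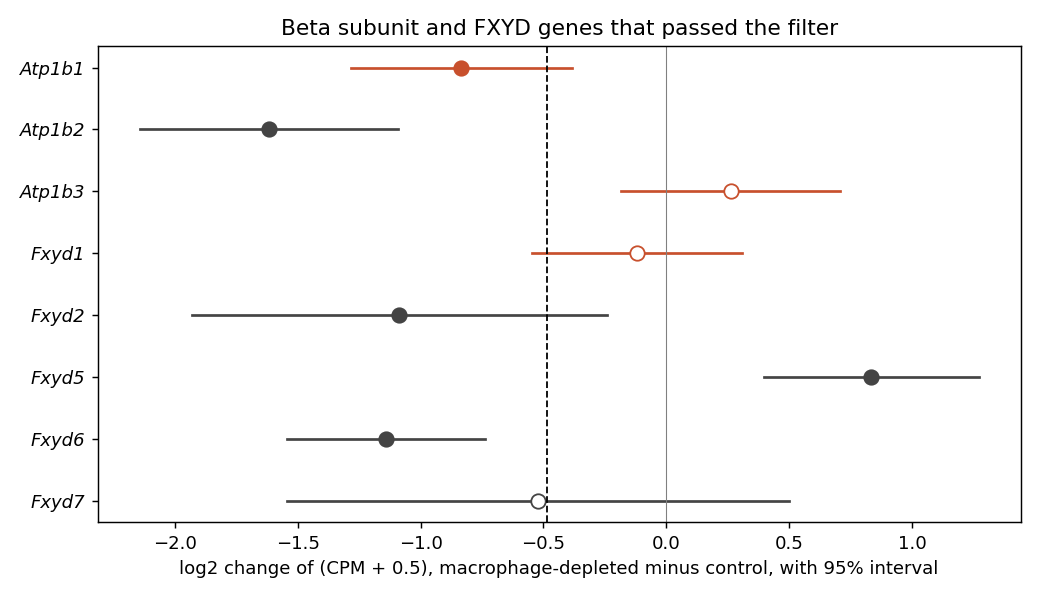
Log2 change of beta subunit and FXYD genes in macrophage-depleted against control libraries, with 95% intervals (members in red). Filled markers have a limma adjusted p under 0.05 and the dashed line is the median of all tested genes. Fxyd5 is the only gene shown to rise, and Atp1b1 lies with the genes that fell.

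Over 8 pathway lists together, 43 of 55 listed genes were tested in depleted against control nodes. Of these 1 rose and 22 fell, with a median log2 change of -0.70 against -0.49 over all tested genes. With median-of-ratios scaling 3 rose and 11 fell, with a median of -0.25 against -0.04, and over all genes 1685 rose and 1675 fell in place of 417 and 4261. The gene that rose on the deposited scale was Fxyd5. Among 14 genes of the adrenergic route to phospholemman and of its kinases and phosphatases, 7 fell and 0 rose, beside 33% and 3.23% of all tested genes. With median-of-ratios scaling 5 of these 14 fell and 1 rose. Adrb1, the beta 1 adrenergic receptor, went from 15.7 ± 2.63 to 4.74 ± 2.46 CPM (SD, n = 3; log2 change -1.72, adjusted p = 0.000149). Prkaca, a catalytic subunit of protein kinase A, went from 127 ± 8.54 to 60.4 ± 13.7 CPM (log2 change -1.10, adjusted p = 0.000369). Its regulatory partner Prkar2a went from 22.3 ± 8.10 to 9.87 ± 0.588 CPM (adjusted p = 0.00274). Akap5, an anchor of this kinase, stood at 1.26 to 2.25 CPM in control and at 0.07, 0 and 0 CPM in libraries 7, 8 and 9.

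The share of all tested genes called lower, 33%, stands beside each count that follows. Of 7 genes that anchor the pump in the membrane or signal with it, 4 fell. These were the ankyrins Ank2 (log2 change -0.95, limma adjusted p = 0.00199) and Ank3 (-1.07, adjusted p = 0.00261), the caveolar coat gene Cav1 (-0.86, adjusted p = 0.00900) and the spectrin Spnb2 (-0.72, adjusted p = 0.0142). Cav1 and Spnb2 missed the threshold with median-of-ratios scaling, without a filter and without control library 1. Spnb2 also missed it without control library 3 and in a fit of only these 2 groups. Without depleted library 9 the Cav1 change was -0.55. With median-of-ratios scaling 2 of these 7 genes fell and 1 rose. Among the exchangers and cotransporters of sodium, the bicarbonate cotransporter Slc4a4 fell (-1.17, adjusted p = 0.00879). That call was lost with median-of-ratios scaling, with quantile normalization, without a filter, and without control library 1 or depleted library 9. Slc8a1, the sodium-calcium exchanger of heart, differed by -0.67 (adjusted p = 0.0746), with 12.43 CPM in library 8 against 31.63 and 36.77 CPM in libraries 7 and 9. The difference was -0.19 without library 8 (adjusted p = 0.555), and it was called without library 7 (-0.85), without library 9 (-0.96) and with library quality weights (-1.36). Of 5 tested calcium pumps 4 fell, Atp2a3 (-1.27, adjusted p = 0.000432), Atp2b2 (-1.30, adjusted p = 0.0108), Atp2b4 (-0.74, adjusted p = 0.0159) and Atp2a2 (-0.83, adjusted p = 0.0470). The last 3 were not called with median-of-ratios scaling, with quantile normalization or without control library 1. Atp2b4 and Atp2a2 were also not called with a common total or in a fit of only these 2 groups, and Atp2b2 and Atp2a2 not without a filter. Atp2a2 was further lost without library 3, 4, 5, 6 or 8. Neither of 2 tested pump-interacting genes of the Nkain family was called by limma, and 0 had an unadjusted p under 0.05. Without depleted library 7, Nkain1, named here after its values were seen, was called lower (-0.96, adjusted p = 0.0271).

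The comparison of Cx3cr1 Cx43-/- with control nodes asked whether the pump subunits follow the loss of connexin 43 in macrophages. None of the 3 members was called, and neither was any of the 43 tested pathway genes, of which 1 had an unadjusted limma p under 0.05. Over all tested genes 1 was called, or 0.00774%, and 191 had an unadjusted p under 0.05. The interval of each difference is given, since a p above the threshold does not show that the groups are alike.

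Atp1b1 read 269.93, 296.73 and 293.10 CPM in Cx3cr1 Cx43-/- libraries 4, 5 and 6, a mean of 287 ± 14.5 CPM (SD, n = 3). All 3 values lay inside the control range. The log2 difference from control was 0.08 with a 95% interval of -0.37 to 0.53. Fxyd1 read 245.04, 217.73 and 210.72 CPM, a mean of 224 ± 18.1 CPM. Libraries 5 and 6 were below all control libraries and library 4 among them. The difference was -0.13 with an interval of -0.56 to 0.29.

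Atp1b3 read 64.91, 52.87 and 56.49 CPM in libraries 4, 5 and 6, a mean of 58.1 ± 6.18 CPM (SD, n = 3). All 3 were above control, but library 5 exceeded the highest control library, at 52.83 CPM, by a margin far below the spread in either group. For 8.94% of tested genes the libraries of these groups did not overlap. The log2 difference of 0.24 (95% interval -0.20 to 0.69) did not pass the test. All 3 members had a limma adjusted p of 1 in this comparison.

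Ratios between members gave a similar picture. Atp1b1 to Atp1b3 was 4.13, 5.57 and 5.15 in libraries 4, 5 and 6, overlapping control (log2 difference -0.16, exact permutation p = 0.4). Fxyd1 to Atp1b1 was 0.908, 0.734 and 0.719, also overlapping (-0.22, exact permutation p = 0.4). Fxyd1 to Atp1b3 was 3.75, 4.09 and 3.71, below all control libraries (-0.37, exact permutation p = 0.1, the smallest possible, adjusted 0.15).

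The third comparison set macrophage-depleted against Cx3cr1 Cx43-/- nodes, using the same depleted libraries as the first. Again Atp1b1 alone of the 3 members was called, among 43.4% of all tested genes (40.7% lower and 2.69% higher), with a median gene at -0.58. Its log2 change was -0.92 (SE 0.22, 95% interval -1.37 to -0.47, limma adjusted p = 0.00233), without overlap, as for 54% of tested genes (depleted lower for 50.6%). With median-of-ratios scaling the change was -0.35 (adjusted p = 0.0492), beside a median gene at -0.05.

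Atp1b3 differed by 0.02 (95% interval -0.43 to 0.47, limma adjusted p = 0.944) and Fxyd1 by 0.01 (-0.41 to 0.44, adjusted p = 0.958). Both were called higher with a common total, at 0.41 and 0.40 (adjusted p = 0.0224 and 0.0249), and with median-of-ratios scaling, at 0.58 each (0.00423 and 0.00696). With quantile normalization Atp1b3 was called at 0.41 (adjusted p = 0.0213) and Fxyd1, at 0.33, was not (adjusted p = 0.0514). The ratio of Atp1b1 to Atp1b3 was lower in depleted libraries by 0.94 on the log2 scale and that of Fxyd1 to Atp1b1 higher by 0.93, each without overlap (exact permutation p = 0.1, adjusted 0.15). Single genes did not overlap between these groups for 54% of those tested. Fxyd1 to Atp1b3 differed by -0.01 (exact permutation p = 0.9). Of the 43 pathway genes 1 rose and 26 fell, with a median of -0.81, and with median-of-ratios scaling 3 rose and 15 fell while over all genes 1691 rose and 1671 fell in place of 348 and 5256.

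The spread of the members among replicates was widest in the depleted group. The coefficient of variation there was 29.5% for Atp1b1, 25.4% for Atp1b3 and 18.6% for Fxyd1, against 12.1%, 8.58% and 8.67% in control and 5.07%, 10.6% and 8.08% in Cx3cr1 Cx43-/-. All 3 members were lowest of their group in library 9, which also held the smallest share of the CPM total in listed genes.

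Over the 9 libraries the members followed each other loosely on the log2 scale. Pearson's r was 0.02 for Atp1b1 with Atp1b3, 0.28 for Atp1b1 with Fxyd1 and 0.45 for Atp1b3 with Fxyd1. These are descriptions of 9 points in 3 groups that share the differences in the CPM total. Among 8804 genes with a mean of at least 5 CPM, those most like Atp1b1 were Hace1, Fam134c, Tspan3, Fbxo45 and Uqcrc2, with r from 0.991 to 0.994. Uqcrc2, a core protein of respiratory complex III, had mean CPM of 364 in control, 387 in Cx3cr1 Cx43-/- and 186 in depleted libraries. Most like Atp1b3 were Psme2, Wdr43, Tcea1, Rbp7 and Eif4ebp1, with r from 0.947 to 0.978. Psme2, a proteasome activator subunit, had means of 11.6, 14.0 and 15.0 CPM in the same order of groups. Most like Fxyd1 were Cox6c, Ube2a, Ndufa1, Uqcr10 and Aurkaip1, with r from 0.957 to 0.970. Cox6c, a subunit of cytochrome c oxidase, had means of 343, 317 and 313 CPM.

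On the opposite strand, Nme7 overlaps Atp1b1 by 617 bases in the GENCODE annotation. The libraries were strand-directional, but the strand setting of the counting is not stated, so reads in the overlap could be assigned to either gene. Nme7 did not exceed 3.30 CPM in any library. Atp1b3 and Fxyd1 overlap no other annotated gene.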

How the data were processed

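RNA of microdissected AV nodes was sequenced in 9 libraries. Per symbol (34198), the authors deposited CPM with 2 decimals. STAR 2.3.0, HTSeq 0.6.0, edgeR and mm9 are named in the submitters' processing notes without roles, and for the annotation the sources used here give no name. Whole reads could not be recovered, so a count model was not used. Log2(CPM + 0.5) was fitted by limma 3.58.1 (R 4.3.3) in a model of all 9 libraries (trended empirical Bayes), for genes of at least 1 CPM in at least 3 libraries. Two-sided p-values were adjusted by Benjamini-Hochberg over 12925 genes, with calls under 0.05. Log2 changes are on this scale, which understates changes of low genes. Ratios were compared by exact permutation.

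Members and lists were chosen with earlier results of these data known. Named were all members, tested genes of the pump lists, up to 4 called genes of each other list, and the 5 genes most like each member. Some genes under this rule are not reported here. Alternatives were other pseudocounts (0.1, 2), filters, scalings and fits, and each library left out in turn. Depth is given by the spacing of low values. Exon lengths came from GENCODE M21, another build than mm9, and promoters from RefSeq. No libraries held identical values (0 pairs).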

Additional observations from a re-analysis of the deposited data

How the results depend on the processing

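No paired analysis was possible because the replicate numbers, 1 to 9, are not shared between groups. Over the alternatives run for the members, 148 values kept direction and side of the threshold, 13 changed sign, 9 passed the threshold where the reported value did not, and 1 lost it. Among the ratios between members 69 values kept their sign and 3 changed it, all of Fxyd1 to Atp1b3 in depleted against Cx3cr1 Cx43-/- (0.038 without library 5, 0.019 without 7 and 0.036 without 8). Relative to cardiomyocyte markers 80 kept it and 1 changed it, Atp1b1 in Cx3cr1 Cx43-/- against control without control library 2 (-0.075). Against control, the depleted difference of Atp1b1 was -0.34 with median-of-ratios scaling (adjusted p = 0.0528). Atp1b3 was called at 0.59 with a common total, 0.59 with quantile normalization, 0.75 with median-of-ratios scaling and 0.49 without library 9. Fxyd1 changed sign to 0.22, 0.17 and 0.37 under those 3 scalings, to 0.016 with library quality weights and to 0.045 without library 9. Against Cx3cr1 Cx43-/-, Atp1b3 was called at 0.41 (common total), 0.41 (quantile) and 0.58 (median of ratios), and Fxyd1 at 0.40 (common total) and 0.58 (median of ratios). The cause of these shifts was not tested.

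With each library left out in turn, the depleted difference from control ran from -1.06 to -0.68 for Atp1b1, 0.14 to 0.49 for Atp1b3 and -0.21 to 0.045 for Fxyd1. Against Cx3cr1 Cx43-/- it ran from -1.15 to -0.76, from -0.10 to 0.25 and from -0.081 to 0.18. The sign changed for Atp1b3 without library 5 (-0.04), 7 (-0.10) or 8 (-0.09), and for Fxyd1 without library 5 (-0.01), 6 (-0.03), 7 (-0.081) or 8 (-0.05). The difference of Cx3cr1 Cx43-/- from control ran from -0.015 to 0.16, from 0.16 to 0.31 and from -0.20 to -0.07, with Atp1b1 at -0.015 without control library 2.

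Pathway genes called lower in depleted against control numbered 22, and 11 with median-of-ratios scaling, 14 with quantile normalization and 12 to 27 with a library left out (12 without control library 1). Those called higher numbered 1, and 3 with median-of-ratios scaling and 2 with a common total, quantile normalization, quality weights or without library 9 (leave-one-out range 1 to 2). Against Cx3cr1 Cx43-/- 26 were lower, and 15, 16 and 19 to 28 under the same settings, and 1 was higher, and 3, 2 and 1 to 2. Fxyd7 changed sign to 0.13 with quantile normalization. Over all genes, calls numbered 4678 against control (2667 without control library 1) and 5604 against Cx3cr1 Cx43-/- (3362 with median of ratios, 3356 with quantile normalization, 3284 without library 5). Between Cx3cr1 Cx43-/- and control they numbered 1, and 0 to 4 under the alternatives. Depth did not limit the members, each resting on at least 2396 reads per library, but 3 libraries a group left wide intervals.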
